A study of Mus musculus with 6 samples.

Results

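The genes described here encode the nuclear subunits of complex III, complex IV and ATP synthase (complex V) of the mitochondrial inner membrane, together with cytochrome c. They were taken by name from the deposited gene tables, as every symbol beginning with Uqcr or Atp5, every symbol of the Cox4 to Cox8 families, and Cyc1, Cycs and Ndufa4, without the genes marked as pseudogenes by -ps. The rule found 45 of the 20673 genes listed, of which 9 belong to complex III, 18 to complex IV and 16 to ATP synthase. Cycs and Atp5s complete the set, and Atp5s (coupling factor B) is not a subunit of ATP synthase in spite of its name.

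The RNA came from the livers of C57BL/6J mice, 3 fed a regular diet (RD) and 3 fed a high-cholesterol diet (HCD) for 3 days, with 1 library per liver. The HCD held more cholesterol and fat than the RD, including cocoa butter, and it also contained sodium cholate, a bile salt, so the parts of cholesterol, fat and cholate cannot be told apart. The study asked how short feeding of this diet changes liver metabolism ahead of sepsis. Adult mice of both sexes were used, and the labels do not give the sex of each liver.

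Complex III passes electrons from ubiquinol to cytochrome c, complex IV passes them from cytochrome c to oxygen, and both move protons out of the mitochondrial matrix. ATP synthase lets the protons return through its membrane part (Fo), where they turn a ring of c subunits, and makes ATP in a catalytic head (F1) that is held still by a peripheral stalk. A few core subunits are encoded by mitochondrial DNA and the others in the nucleus, and several complex IV subunits exist as a broadly expressed isoform and an isoform found mainly in heart and skeletal muscle, testis or lung.

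Total counts on genes ran from 13771630 to 23129576 in the RD livers and from 13935491 to 18545549 in the HCD livers. All 6 hepatocyte markers examined, Alb among them, were present in every liver, and edgeR called none different between the diets, while DESeq2 called Ttr higher with HCD (adjusted p = 0.0144). In CPM, which are counts scaled to a common library total, the 6 Kupffer cell markers summed to 90.4 to 162 CPM with RD and 130 to 305 CPM with HCD. All 6 had a log2 fold change above 0, and edgeR called none of them, while DESeq2 called 2, Clec4f (adjusted p = 0.0416) and Cd5l (adjusted p = 0.00189), higher. The 5 red blood cell markers summed to 138 to 239 CPM with RD and 177 to 468 CPM with HCD, and 2 of them, Hba-a1 and Hbb-bs, were called higher by edgeR and 3 by DESeq2, against 1.95% and 3.88% of all genes tested. Alas2 of the same list was at 105 to 154 CPM with RD and 8.24 to 119 CPM with HCD, the lowest in HCD replicate 1, and was not called. All 7 stellate cell and pericyte markers had a log2 fold change above 0, summing to 190.5 to 215 CPM with RD and 209 to 331 CPM with HCD, and the median was 0.62 over 4 cholangiocyte markers, 0.21 over 5 endothelial markers and 0.10 over 3 leukocyte markers, with no call in these lists by either tool. Xist, which is transcribed in female cells, was counted in HCD replicate 1 alone, with 5032 reads. The part of these differences in the values below was not tested. In whole liver, more cells of a type and more RNA per cell cannot be told apart.

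The sequence around the start sites is shown for 5 ATP synthase genes because nuclear respiratory genes are textbook targets of the factors NRF1 and GABPA, which bind close to such sites. RefSeq windows on GRCm38.p6, from 250 bases before to 50 bases after the start, matched 32 of the 45 genes. Atp5h, Atp5l and Atp5o had the largest rises among the ATP synthase genes with HCD, and Atp5g3 and Atp5b were not called. Their windows lie at chr11:115419870-115420169, chr9:44920693-44920992, chr16:91931581-91931880 and chr2:73911277-73911576, all on the minus strand, and at chr10:128083057-128083356 on the plus strand. They are written 5′ to 3′ along the gene, with matches to the motifs in capitals.
Atp5h: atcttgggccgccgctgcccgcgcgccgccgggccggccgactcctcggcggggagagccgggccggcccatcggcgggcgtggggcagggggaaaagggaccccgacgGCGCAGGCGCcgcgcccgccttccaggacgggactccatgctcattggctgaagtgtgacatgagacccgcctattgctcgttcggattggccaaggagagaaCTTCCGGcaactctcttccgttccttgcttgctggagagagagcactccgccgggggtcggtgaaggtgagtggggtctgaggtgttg
Atp5l: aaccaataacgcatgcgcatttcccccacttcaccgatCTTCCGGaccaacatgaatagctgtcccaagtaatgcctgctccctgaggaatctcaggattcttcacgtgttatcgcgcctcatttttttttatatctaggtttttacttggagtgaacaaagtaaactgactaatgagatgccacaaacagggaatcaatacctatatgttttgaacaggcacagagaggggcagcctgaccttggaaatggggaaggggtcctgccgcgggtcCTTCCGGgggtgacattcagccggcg
Atp5o: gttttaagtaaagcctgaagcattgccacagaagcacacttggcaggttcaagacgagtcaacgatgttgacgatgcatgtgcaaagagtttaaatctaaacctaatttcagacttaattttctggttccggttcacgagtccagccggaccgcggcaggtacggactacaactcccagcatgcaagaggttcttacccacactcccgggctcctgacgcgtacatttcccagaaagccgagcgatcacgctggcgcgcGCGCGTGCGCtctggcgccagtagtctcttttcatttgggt
Atp5g3: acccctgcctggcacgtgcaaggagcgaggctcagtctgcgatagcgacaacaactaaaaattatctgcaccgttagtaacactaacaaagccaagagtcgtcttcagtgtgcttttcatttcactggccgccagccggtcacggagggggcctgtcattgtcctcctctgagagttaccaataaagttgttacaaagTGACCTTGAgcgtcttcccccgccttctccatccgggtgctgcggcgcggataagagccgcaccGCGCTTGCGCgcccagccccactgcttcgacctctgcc
Atp5b: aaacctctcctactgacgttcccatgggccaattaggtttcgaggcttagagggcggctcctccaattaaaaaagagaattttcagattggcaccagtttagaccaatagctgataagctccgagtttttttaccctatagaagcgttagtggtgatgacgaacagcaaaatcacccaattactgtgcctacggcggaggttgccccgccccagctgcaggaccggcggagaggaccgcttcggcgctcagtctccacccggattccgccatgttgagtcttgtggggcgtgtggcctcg

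The capitals mark the NRF1 motif (GCGCA and GCGC with any base between them), the GABPA motif of the ETS family CCGGAAG and the ESRRA motif TCAAGGTCA, each searched on both strands. Atp5h had an NRF1 match that began 141 bases upstream of the start and a GABPA match 38 bases upstream, whereas Atp5l had 2 GABPA matches and no NRF1 match. Atp5o and Atp5g3 had NRF1 letters just after the start, and Atp5g3 had the only ESRRA match of the set, 52 bases upstream. Atp5b had none of these letters. Of the 30 tested members with a window, 8 (26.7%) held the NRF1 motif, against 11.4% of 9776 tested genes and 4.60% of all 32851 windows. The GABPA motif was in 10 of them (33.3%), against 19.8% of tested genes and 8.86% of windows. The YY1 motif AAGATGGCG was in 2 members (6.67%, against 3.65% of tested genes and 1.40% of windows), and TATAAA was in 1, Atp5l (3.33%, against 9.26% and 13.6%). No match of a motif overlapped a match of another motif. The NRF1 or the GABPA motif was present in 4 of the 8 members that were called higher with HCD and in 11 of the 22 that were not, against 28.6% of tested genes. The share with these letters was thus the same among called and other members, and binding of the factors was not measured.

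With HCD, 10 of these mRNAs rose, by 1.61-fold to 2.09-fold, and no member was called lower. Of the 45 genes, 40 had enough reads to be tested, and 10 were called higher at an adjusted p under 0.05 in edgeR's quasi-likelihood test over 13105 genes, against 1.95% of all genes tested, and 0 were called lower, against 1.32%. The genes called were Uqcr10 and Uqcrq of complex III, Ndufa4, Cox6c and Cox5a of complex IV, and Atp5h, Atp5l, Atp5o, Atp5e and Atp5j2 of ATP synthase. Levels with HCD over those with RD gave a log2 fold change above 0 in 37 of the 40, as it was in 50.7% of all genes tested. In 27 of the 40 every HCD liver lay above every RD liver, against 14% of all genes tested, and in none of the 40 did every HCD liver lie below (13.7% of all genes). At an unadjusted p under 0.05, 22 were higher, against 11.1%. DESeq2 called these 10 and 5 more, Uqcrb, Uqcrh, Cox4i1, Cox6b1 and Cox7a2, against 3.88% of the genes it tested, and none lower, against 3.09%.

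The number of calls fell when some of the livers were left out, as it did among all genes. No member was called without RD replicate 1 or without RD replicate 2, where 0.13% and 0.176% of all genes were called higher. Only Atp5l was called without RD replicate 3 or without HCD replicate 3 (0.557% and 0.412% of all genes). Leaving out HCD replicate 1 left 6 calls (1.58% of all genes), all of them among the 10. Without HCD replicate 2 there were also 10 calls (1.75%), of which 9 were among the 10, since Atp5e was no longer called and Uqcrb was. All 40 genes were fitted each time, and every one of the 10 kept a log2 fold change above 0 with any single liver left out. The lowest of these values was 0.60, for Uqcrq and for Cox6c. With 1 liver left out Atp5h ran from 0.93 to 1.21, Atp5l from 0.86 to 0.99, Ndufa4 from 0.68 to 0.77 and Uqcr10 from 0.74 to 0.85.

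**Figure D1:**
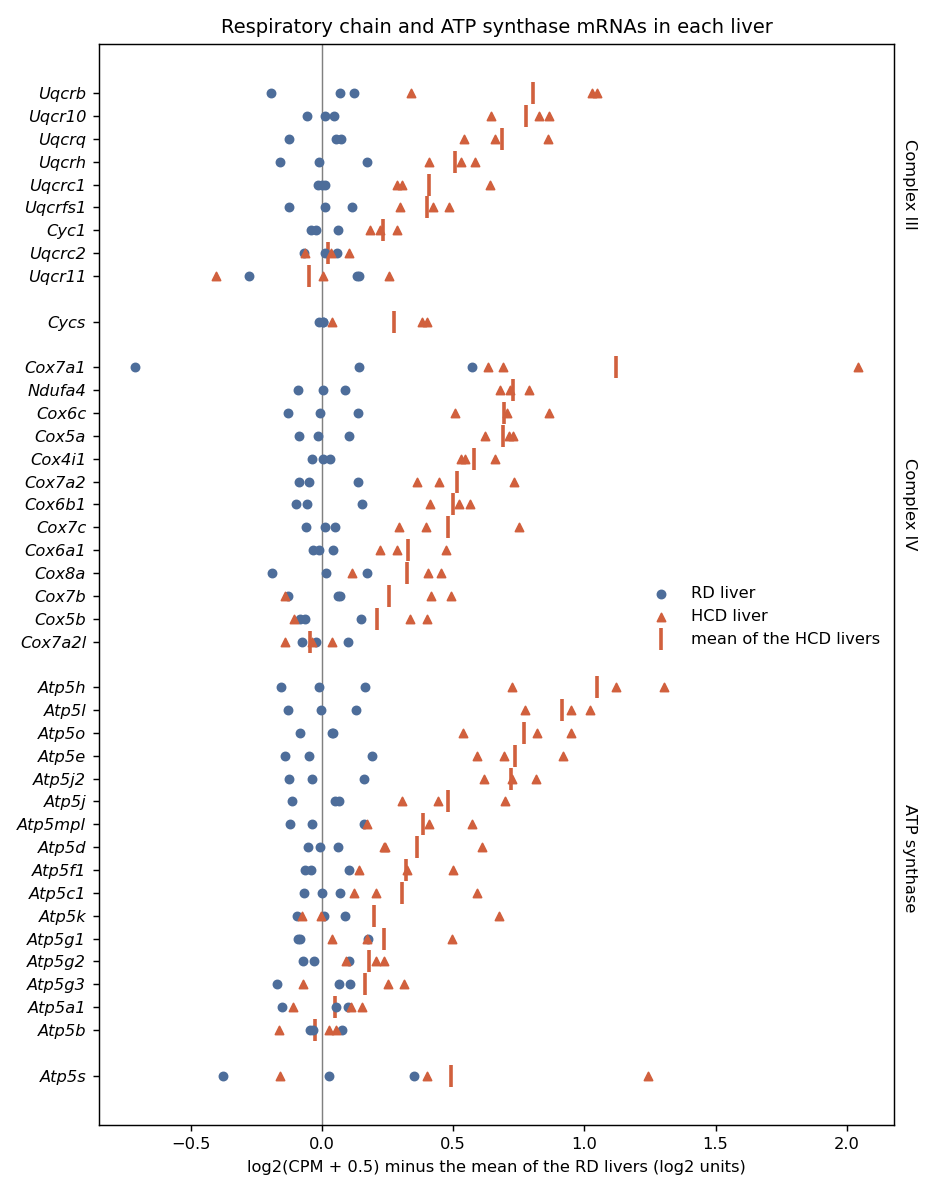
Level of each tested mRNA in each liver, as log2(CPM + 0.5) minus the mean of the RD livers (horizontal axis, log2 units), grouped by complex and ordered by log2 fold change. Circles are RD livers, triangles HCD livers and vertical bars the mean of the 3 HCD livers. In 27 of the 40 rows all triangles lie to the right of all circles. In the other rows triangles and circles overlap, Uqcrc2, Uqcr11, Cox7a2l, Atp5a1 and Atp5b among them.

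The difference also followed the length of the mRNA. These genes are short, with a median principal mRNA of 751.5 bases among the 40 members and 2863 bases among all genes tested. The log2 fold change fell with that length across 13097 genes (Spearman's rho = -0.27) and across the 40 members (rho = -0.44), where genes are not independent replicates. When all genes were put in 12 bins of about equal size by length, the shortest bin (57 to 945 bases) had a median log2 fold change of 0.36 over 1092 genes, and 10.3% of them were called higher. Of the 24 members in this bin, whose median was 0.51, 8 were called higher, and in 18 the diets did not overlap, against 35% of the genes of the bin. Across all bins, 30 of the 40 members were above the median of their own bin and 11 were above its upper quartile.

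Once a smooth trend of each library with mRNA length was removed, no member was called, against 0.932% of all genes, and the lowest adjusted p of a member was 0.063 (edgeR), for Atp5h. The log2 fold changes became smaller in 37 members, and 33 were above 0, as were 52.3% of all genes. Libraries differed in this trend: the slope of a gene's deviation per doubling of mRNA length was 0.048, 0.080 and 0.053 log2 units in the RD livers and -0.017, -0.054 and -0.11 in the HCD livers. The RD livers were thus relatively richer in long mRNAs and the HCD livers in short ones. Where the trend comes from was not tested, and the rises of the 10 genes cannot be told apart from it at the threshold used. The deposited library names begin with A for every RD liver and with Liver for every HCD liver. Whether the libraries of the diets were handled apart is not stated, and any such difference could not be told apart from diet.

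**Figure D2:**
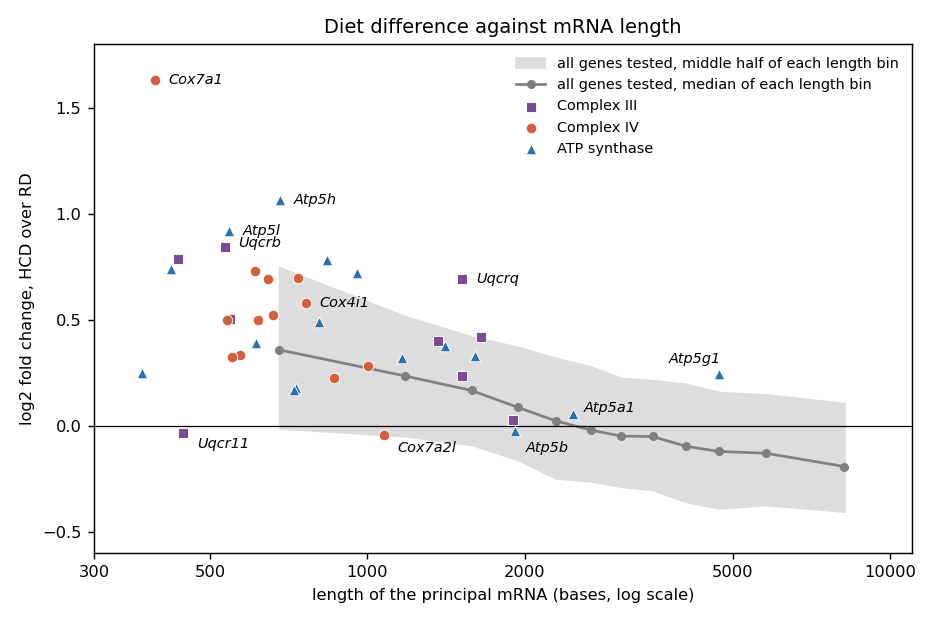
Log2 fold change of HCD over RD (vertical axis) against the length of the principal mRNA (horizontal axis, bases, log scale). Squares, circles and triangles are tested members of complex III, complex IV and ATP synthase, the grey line joins the medians of all tested genes in 12 length bins and the band spans the quartiles of each bin. The grey line falls from 0.36 to -0.19, and 30 of the 40 tested genes, which include Cycs and Atp5s that are not drawn, were above it by bin.

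Among the complexes, complex IV had the largest median difference. The median log2 fold change was 0.50 over its 13 tested genes, 0.42 over the 9 of complex III and 0.35 over the 16 of ATP synthase, against 0.0074 over all genes tested. Complex III summed to 1460, 1342 and 1497 CPM in the RD livers and to 1980, 1717 and 1990 CPM in the HCD livers. The sum for complex IV was 1837, 1760 and 1976 CPM with RD and 2637, 2400 and 2769 CPM with HCD, so that neither complex overlapped between the diets. ATP synthase summed to 3963, 3728 and 4244 CPM with RD and 4808, 4165 and 5015 CPM with HCD, and here HCD replicate 2 lay within the RD range. Atp5a1 and Atp5b, in which the diets overlapped, had the highest CPM of its genes. The medians were 0.27, 0.20 and 0.24 for complexes III, IV and V after removal of the mRNA length trend, so the order of the complexes was not kept.

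Taking each liver by the median deviation of the 40 members from their 6-liver mean, the RD livers were at -0.20, -0.32 and -0.12 log2 units and the HCD livers at 0.27, 0.066 and 0.31. HCD replicate 2 was the closest of its group to the RD livers, and RD replicate 3 the closest of the RD livers to HCD.

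Both complex III genes that were called encode small subunits without a redox group. The median log2 fold changes were 0.69 for 5 small subunits, 0.32 for the redox subunits Cyc1 and Uqcrfs1, and 0.22 for the core proteins Uqcrc1 and Uqcrc2, whose mRNAs are longer. With the mRNA length trend removed they were 0.43, 0.20 and 0.14, and without HCD replicate 3 that of the core proteins was 0.13. Uqcr10 (ENSMUSG00000059534, chr11:4701973-4704342, minus strand), a small subunit next to cytochrome c1, was at 62.9, 58.7 and 61.4 CPM in the RD livers and 111, 95.7 and 109 CPM in the HCD livers. The diets were well apart, and the log2 fold change was 0.79 ± 0.12 (standard error of the fit, SE, adjusted p = 0.0184, edgeR). Uqcrq (ENSMUSG00000044894, chr11:53427922-53430831, minus strand), another small subunit, was at 232, 202 and 229 CPM with RD and 401, 321 and 349 CPM with HCD. Here too every HCD liver was above the RD livers, with a log2 fold change of 0.69 ± 0.15 (SE, adjusted p = 0.0459, edgeR). Uqcrq has the longest principal mRNA of the called genes, 1521 bases, and kept a log2 fold change of 0.59 after the length trend was removed (adjusted p = 0.0965, edgeR; 0.00111 to 0.106 over the alternatives with all livers).

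Uqcrb, a subunit close to the quinone site, had the largest difference of complex III, 0.84, and did not pass the test (adjusted p = 0.0630, edgeR). It was at 56.6, 45.4 and 54.6 CPM with RD and 107, 65.8 and 108 CPM with HCD, where HCD replicate 2 stood well below the other HCD livers. Without that liver it was called (adjusted p = 0.0264, edgeR, with 0.0264 to 0.236 over the livers left out), as it was by DESeq2 (adjusted p = 0.00397). Uqcrh, the hinge protein of cytochrome c1, had a log2 fold change of 0.50 and was called by DESeq2 alone (adjusted p = 0.0449).

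The Rieske iron-sulfur protein Uqcrfs1 had the highest FPKM of complex III over the 6 livers, although Uqcr11 was higher with RD (234 FPKM). It had 221 ± 23 FPKM (SD, n = 3) with RD and 296 ± 25.7 FPKM with HCD. FPKM here are the deposited values, which divide by the summed exon length of a gene, and per kilobase of principal mRNA Uqcrh (236 CPM), Uqcr11 (227), Uqcrc1 (195), Uqcr10 (192) and Uqcrq (190.0) were above Uqcrfs1 (175). Its log2 fold change was 0.40 and its adjusted p 0.15 (edgeR). Cyc1, cytochrome c1 itself, was at 0.23 and Uqcrc1 at 0.42, and neither was called although the diets did not overlap in either. The core protein Uqcrc2 was at 0.03 and the small subunit Uqcr11 at -0.04, with overlapping diets in both. Uqcr11 is an exception among the small subunits, since its principal mRNA of 445 bases is about as short as that of Uqcr10 (434 bases). Cycs, the soluble carrier between complexes III and IV, was at 73.4, 73.4 and 72.5 CPM with RD and 96.5, 75 and 95.5 CPM with HCD, so that HCD replicate 2 was barely above the RD livers. Its log2 fold change of 0.28 was not called (adjusted p = 0.273, edgeR).

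In complex IV, 3 subunits without a tissue isoform were called higher. Ndufa4, long counted as a complex I subunit and later placed in complex IV, had the largest difference of the 3. It (ENSMUSG00000029632, chr6:11900292-11907497, minus strand) was at 192, 179 and 203 CPM with RD and 315, 306 and 331 CPM with HCD. The gap between the diets was several times the spread within either, and the log2 fold change was 0.73 ± 0.13 (SE, adjusted p = 0.0283, edgeR). Cox5a (ENSMUSG00000000088, chr9:57521274-57532426, plus strand), which faces the matrix, was at 84.2, 88.6 and 96.3 CPM with RD and 138, 147 and 149 CPM with HCD. These values were as clearly apart, with a log2 fold change of 0.69 ± 0.12 (SE, adjusted p = 0.0277, edgeR). Cox6c (ENSMUSG00000014313, chr15:35925886-35938246, minus strand), a membrane subunit, was at 138, 127 and 153 CPM with RD and 227, 198 and 254 CPM with HCD. Its log2 fold change was 0.70 ± 0.15 (SE, adjusted p = 0.0462, edgeR). Cox7c (0.50), Cox7b (0.28) and Cox5b (0.22) were not called. With 1 liver left out they ran from 0.35 to 0.59, from 0.16 to 0.45 and from 0.13 to 0.37. Cox7b and Cox5b overlapped between the diets, since HCD replicate 2 was just below the RD range in both, and Cox7b is an X-linked gene.

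**Figure D3:**
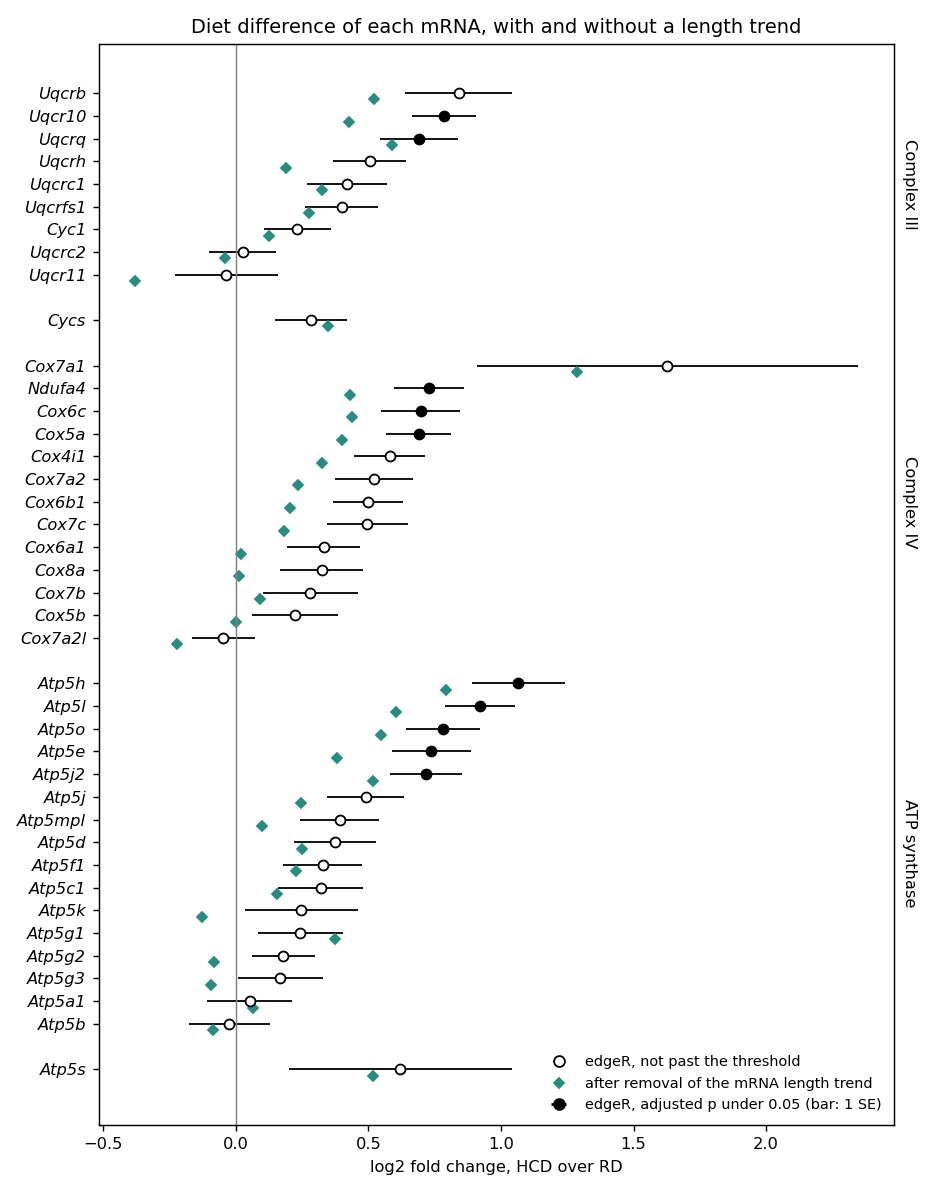
Log2 fold change of HCD over RD (horizontal axis) for each tested mRNA, by complex. Circles with a bar are edgeR estimates with 1 standard error, filled where the adjusted p was under 0.05 (10 genes), and diamonds are the estimates after removal of the mRNA length trend, none of which passed. The diamonds lie to the left of the circles in 37 of the 40 rows.

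Liver expressed the broad isoforms of complex IV, and the tissue isoforms were close to absent with both diets. Cox6a1 (688 FPKM over the 6 livers), Cox8a (546) and Cox4i1 (426) were the most abundant complex IV mRNAs by FPKM, and Cox4i1 (584), Cox6a1 (574) and Ndufa4 (417) by CPM per kilobase of principal mRNA. Their partners Cox6a2 and Cox8b of heart and muscle and Cox4i2 of lung had 7, 5 and 6 counts in all 6 livers together, against 33794, 21075 and 45768 counts of the broad isoforms. Cox6b2, the testis isoform, had 45 counts against 15960 of Cox6b1. Cox6c2, which the annotation calls a processed pseudogene, had 13 counts. These 5 genes did not pass the filter on low counts, so a difference between the diets in them was not detectable at this depth. Counts were spread as 2, 0 and 4 (RD) and 0, 0 and 0 (HCD) for Cox4i2, 1, 1 and 0 and then 1, 4 and 0 for Cox6a2, and 1, 0 and 4 and then 0, 0 and 0 for Cox8b. For Cox6b2 they were 3, 1 and 15 with RD and 14, 8 and 4 with HCD, and for Cox6c2 2, 2 and 8 with RD and 0, 1 and 0 with HCD. No liver carried more than a trace of any of them: a count of 0 allows up to 0.130 to 0.218 CPM (3 counts), which covers counting error only.

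The broad isoforms all had higher means with HCD, and none was called in the main edgeR fit. Cox4i1, a large nuclear subunit that joins early in assembly, came nearest to the threshold, at 360, 349 and 366 CPM with RD and 523, 518 and 566 CPM with HCD. The diets were far apart in it, with a log2 fold change of 0.58 (SE 0.13) and an adjusted p of 0.0564 (edgeR) or 0.00287 (DESeq2). With only genes of a mean of at least 50 counts kept, edgeR called Cox4i1 (adjusted p = 0.0449). Cox7a2 (0.52), Cox6b1 (0.50), Cox6a1 (0.33) and Cox8a (0.32) followed, and in Cox8a HCD replicate 2 fell among the RD livers. The ratio of Cox6b2 to Cox6b1 was not distinguishable between the diets (difference 0.74 on the log2 scale, two-sided exact permutation p = 0.4, where 3 livers against 3 cannot go below 0.1).

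In the COX7A family, the ratio of Cox7a2l to Cox7a2 did not overlap between the diets, while that of Cox7a1 to Cox7a2 could not be told from the spread between livers. Cox7a1, the heart and muscle isoform, had the largest fold change of all members and also the least certain, at 0.240, 0.837 and 1.30 CPM with RD and 4.50, 1.38 and 1.46 CPM with HCD. The log2 fold change was 1.63 ± 0.72 (SE, adjusted p = 0.243, edgeR), and leaving out 1 liver moved it from 0.83 (without HCD replicate 1) to 2.23 (without RD replicate 3). The log2 ratio of Cox7a1 to Cox7a2 differed by 1.14 (two-sided exact permutation p = 0.5). Cox7a1 was 0.233% to 3.18% of the Cox7a1 and Cox7a2 counts in a liver, and of the 7 skeletal muscle markers looked for only Mylpf was listed, at 0.486 to 1.31 CPM. Cox7a2 (ENSMUSG00000032330, chr9:79755361-79759878, minus strand), the broad isoform, was at 103, 100 and 117 CPM with RD and 137, 145 and 177 CPM with HCD. Cox7a2l (ENSMUSG00000024248, chr17:83501918-83517330, minus strand), a relative that joins complexes III and IV into supercomplexes and of which C57BL/6 strains carry a short form, was at 79.0, 76.0 and 85.9 CPM with RD and 82.4, 78.0 and 72.7 CPM with HCD. Cox7a2 was thus higher in every HCD liver, while Cox7a2l overlapped. Supercomplexes were not measured, so the values do not bear on whether the short form joins them.

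Within each liver, the log2 ratio of Cox7a2l to Cox7a2 counts was -0.38, -0.40 and -0.44 with RD and -0.73, -0.89 and -1.29 with HCD. Cox7a2l made up 43.4%, 43.1% and 42.3% of the counts of the pair with RD and 37.6%, 35.0% and 29.1% with HCD. The ratios did not overlap and differed by -0.56, more than the spread of the 3 HCD livers (SD 0.28) or the 3 RD livers (SD 0.033). The two-sided exact permutation p was 0.1, the smallest that 3 livers against 3 allow, and 0.6 after adjustment over the 6 ratios tested. The principal mRNA of Cox7a2l has 1076 bases and that of Cox7a2 659 bases. The log2 fold changes of Cox7a2l and Cox7a2 were -0.05 and 0.52, and they were -0.22 and 0.23 once the length trend was removed.

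**Figure D4:**
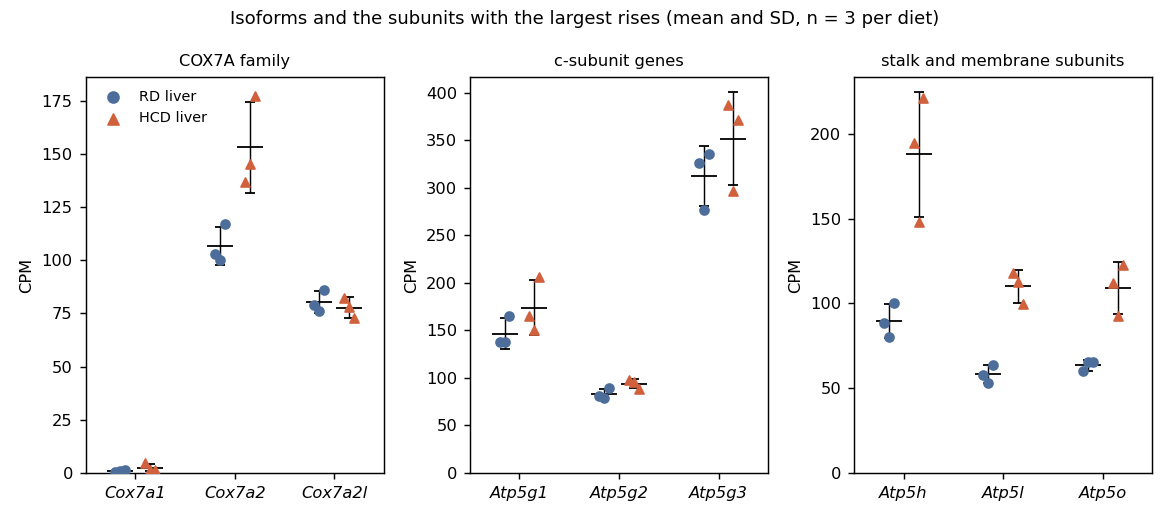
CPM (vertical axes, from 0) of the COX7A family, of the 3 c-subunit genes and of 3 stalk and membrane subunits of ATP synthase in each liver. Circles are RD livers, triangles HCD livers, and bars the mean with SD (n = 3 per diet). Cox7a2 is higher in each HCD liver while Cox7a2l overlaps, the 3 c-subunit genes overlap, and Atp5h, Atp5l and Atp5o are separated.

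In ATP synthase, the genes called encode parts of the peripheral stalk and of the membrane sector and the smallest subunit of the head, while the diets overlapped in the abundant catalytic subunits. The median log2 fold changes were 0.64 for 4 subunits of the peripheral stalk, 0.56 for 4 small membrane subunits of Fo, 0.32 for 5 subunits of F1 and 0.18 for the 3 genes of the c ring. With the mRNA length trend removed they were 0.40, 0.31, 0.16 and -0.081, and without HCD replicate 3 that of F1 was 0.16, while that of the c ring was 0.28 without HCD replicate 2. Atp5h (ENSMUSG00000034566, chr11:115415689-115419962, minus strand), subunit d of the stalk, was at 88.6, 80.2 and 100 CPM with RD and 195, 148 and 221 CPM with HCD. It had the largest rise of any called member, 2.09-fold (log2 fold change 1.07 ± 0.18, SE, adjusted p = 0.0237, edgeR), with HCD replicate 2 the lowest of the HCD livers. Atp5o (ENSMUSG00000022956, chr16:91925214-91931687, minus strand), the stalk subunit that grips the head and is known as OSCP, was at 59.8, 65.2 and 65.3 CPM with RD and 112, 92.4 and 123 CPM with HCD. All HCD livers were above the RD livers, with a log2 fold change of 0.78 ± 0.14 (SE, adjusted p = 0.0282, edgeR). The other stalk genes, Atp5j (coupling factor 6; 0.49) and Atp5f1 (subunit b; 0.33), did not overlap between the diets and were not called.

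Among the small membrane subunits, Atp5l and Atp5j2 were called and Atp5mpl and Atp5k were not. Atp5l (ENSMUSG00000038717, chr9:44912557-44920742, minus strand), subunit g, which helps ATP synthase to form dimers, was at 57.8, 53.0 and 63.6 CPM with RD and 118, 113 and 99.5 CPM with HCD. It had the lowest adjusted p of the members (log2 fold change 0.92 ± 0.13, SE, adjusted p = 0.0136, edgeR), and no HCD liver came near the RD range. Atp5j2 (ENSMUSG00000038690, chr5:145183698-145192062, minus strand), subunit f, was at 105, 99.1 and 121 CPM with RD and 191, 166 and 179 CPM with HCD. Its log2 fold change was 0.72 ± 0.14 (SE, adjusted p = 0.0319, edgeR). Atp5mpl, a small proteolipid, was at 0.39 and Atp5k, subunit e, at 0.25. Subunit e pairs with subunit g in the same membrane module, but Atp5k was at 22.6, 23.9 and 21 CPM with RD and 36.2, 22.5 and 21.3 CPM with HCD. Only HCD replicate 1 was above the RD range, and without it the log2 fold change of Atp5k was -0.040.

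In the head, Atp5e, the smallest subunit of F1, was alone in being called. Atp5e (ENSMUSG00000016252, chr2:174461072-174464105, minus strand) was at 90.7, 85.0 and 107 CPM with RD and 178, 152 and 142 CPM with HCD, without overlap. The log2 fold change was 0.74 ± 0.15 (SE, adjusted p = 0.0397, edgeR), on a principal mRNA of 421 bases. The catalytic beta subunit Atp5b (ENSMUSG00000025393, chr10:128083273-128090391, plus strand) was at 1114, 1122 and 1212 CPM with RD and 1193, 1026 and 1171 CPM with HCD. The alpha subunit Atp5a1 was at 986, 855 and 1018 CPM with RD and 1026, 881 and 1057 CPM with HCD. Both overlapped between the diets, with log2 fold changes of -0.02 (SE 0.15) and 0.05 (SE 0.16). Atp5c1 (gamma, 0.32) and Atp5d (delta, 0.37), which form the central shaft with Atp5e, did not overlap and were not called. With 1 liver left out Atp5c1 ran from 0.16 to 0.41 and Atp5d from 0.23 to 0.44. Over the 6 livers, Atp5a1 (457 FPKM), Atp5b (397) and Atp5d (227) were the most abundant ATP synthase mRNAs per summed exon length. Per kilobase of principal mRNA the order was Atp5b (595 CPM), Atp5g3 (460) and Atp5a1 (393), since these genes differ in how much of their annotated exon length the principal mRNA uses.

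The 3 genes Atp5g1, Atp5g2 and Atp5g3 encode the same mature c subunit and differ in their import sequences. Together they gave 545, 493 and 590 CPM with RD and 650, 542 and 666 CPM with HCD, where HCD replicate 2 overlapped the RD livers. Atp5g3 supplied 56.2% to 59.8% of these counts with RD and 54.7% to 59.6% with HCD, Atp5g1 25.3% to 28.0% and 25.4% to 31.0%, and Atp5g2 14.9% to 16.0% and 13.3% to 17.6%. The shares overlapped between the diets for each gene, and none of the 3 ratios between the genes separated the diets (two-sided exact permutation p = 1 for Atp5g1 to Atp5g2, 0.9 for Atp5g3 to Atp5g2 and 0.5 for Atp5g1 to Atp5g3). The log2 fold changes of the genes were 0.24, 0.18 and 0.17. With 1 liver left out they ran from 0.098 to 0.34, from 0.14 to 0.23 and from 0.088 to 0.28. Atp5s, which is not a subunit, was at 2.93 to 5.19 CPM with RD and 3.49 to 10.1 CPM with HCD and was not called (log2 fold change 0.62, or 0.11 without HCD replicate 3, adjusted p = 0.436 with all livers, edgeR).

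Some members share sequence with other annotated genes, many of them processed pseudogenes, so that reads could be split between them. Atp5h is alike to Gm10250 (99.0% identity), whose counts came to 15.3% of those of Atp5h, and Atp5l is identical over 309 bases to Gm10221, which with other copies of Atp5l came to 31.4%. Gm10250 had a log2 fold change of 0.57 and Gm10221 of 0.61, neither called. With the counts of all alike copies added, the log2 fold change was 1.00 for Atp5h and 0.85 for Atp5l, and the same 10 members were called. Atp5g1 (copies at 26.0% of its counts), Cox5b (10.4%) and Cycs (9.22%) are uncertain in the same way. Exons of Cox6c, Cox4i1, Atp5f1 and Atp5j overlap those of Vps13b, Emc8, Wdr77 and Gabpa on the opposite strand, by 154 to 397 bases, and whether reads were counted by strand is not stated in the sources used here. Atp5o shares 243 exon bases with a second annotated gene of the same name.

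The subunits of these complexes encoded by mitochondrial DNA had a median log2 fold change of -0.11, with no settled sign. It was 0.048 without HCD replicate 1, 0.022 without HCD replicate 2, -0.027 and -0.048 without RD replicates 1 and 3, -0.26 without RD replicate 2, -0.47 without HCD replicate 3, and -0.38 after removal of either length trend. Of the 6 genes, none was called in either direction by edgeR or DESeq2, and at an unadjusted p under 0.05 in edgeR none was higher and 1, mt-Atp6, was lower, against 11.1% and 9.81% of all genes tested. The cytochrome b gene mt-Cytb of complex III was at 7880, 8159 and 7738 CPM with RD and 8171, 9208 and 14164 CPM with HCD, without overlap, and differed by 0.41 on the log2 scale (adjusted p = 0.370, edgeR). The core subunit gene mt-Co1 of complex IV was at 18174, 19462 and 16144 CPM with RD and 18122, 19196 and 31226 CPM with HCD. In both, HCD replicate 3 was far above the rest. The complex IV genes mt-Co2 and mt-Co3, with means of only 198 and 191 CPM with RD, were at 0.14 and -0.36. The Fo gene mt-Atp8, with 1 to 25 counts in a liver, was at -1.06. The median weighs all 6 genes alike despite these gaps in level. Copies alike in sequence were not searched for the genes of mitochondrial DNA. For mt-Atp6, subunit a of Fo, the values were 323, 141 and 243 CPM with RD and 90.1, 95.3 and 186 CPM with HCD. The diets overlapped in it, with a log2 fold change of -0.93 and an adjusted p of 0.187 (edgeR).

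Assembly factors and regulators were not called either. The 6 assembly factors of complex III had a median log2 fold change of 0.19, the 23 tested of complex IV 0.04, the 5 of ATP synthase (with its inhibitor) 0.07, and 13 regulators of respiratory genes 0.16. These medians were small and moved with the livers used, from -0.029 (without RD replicate 2) to 0.35 (without RD replicate 1) for complex III, from -0.016 (without RD replicate 3) to 0.14 (without HCD replicate 1) for complex IV, from 0.028 (without HCD replicate 2) to 0.099 for ATP synthase, and from 0.016 (without HCD replicate 1) to 0.17 for the regulators. With the mRNA length trend removed they were -0.027, 0.085, -0.0019 and 0.17. None of these 47 genes was called by edgeR in either direction, and at an unadjusted p under 0.05 it was 7 higher and 0 lower, against 11.1% and 9.81% of all genes tested. DESeq2 called 1 higher, against 3.88% of all genes, and it was Cox16, a factor that helps to build the copper site of complex IV, which is named after its values were seen. Cox16 was at 6.34, 6.14 and 5.77 CPM with RD and 12.2, 9.51 and 13.7 CPM with HCD, a log2 fold change of 0.95 (adjusted p = 0.050, edgeR, and 0.020, DESeq2). Of the genes for factors whose motifs were searched, Nrf1 (0.12), Gabpa (-0.17), Yy1 (0.09) and Esrra (0.19) all overlapped between the diets.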

How the data were processed

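RNA from 6 mouse livers was isolated with the RNeasy Kit and sequenced by Novogene, in 1 library per liver. The submitters' processing notes name STAR, HTSeq, DESeq2 and edgeR without versions and the build GRCm39. The authors deposited read counts per gene, whole numbers without normalization, and FPKM values, whose implied gene lengths matched the summed exons of GENCODE M21 on GRCm38 to within 0.1% in 94.6% to 94.8% of genes, depending on the liver. M21 therefore gave positions, lengths and principal transcripts. Columns in which the authors deposited the log2 fold change and p-value from a comparison of the diets were not used.

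Counts were tested in R 4.3.3 with edgeR 4.0.16 (filterByExpr by diet, TMM, glmQLFit and glmQLFTest, two-sided, diet as the only term). P-values were adjusted by the Benjamini-Hochberg method over 13105 genes, and genes were called at an adjusted p under 0.05, the threshold of the study's methods. CPM are scaled by TMM. Isoform ratios are log2 ratios of counts plus 0.5. Copies were found with minimap2 2.31 (at least 200 bases at 90% identity, over 50% of the copy), and their addition and the mRNA length trend (loess, span 0.5) were alternatives chosen after seeing the data. The others were DESeq2 1.42.0, limma 3.58.1 on log2 of FPKM plus 1 or 0.1, other scalings and filters, trends with summed exon length and GC content, a replicate block, and each liver left out. Every member is named, with full values for called genes, isoform families, and the most abundant and extreme members of each complex. The members and lists were chosen with earlier results of these data known. Nothing states that livers came from separate cages or litters, so p-values measure the spread between these livers. Figures were drawn with matplotlib 3.10.9.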

Additional observations from a re-analysis of the deposited data

How the results depend on the processing

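The count of 10 members called higher was 15 with DESeq2, 11 without a filter on low counts or with a mean of at least 50 counts, 7 with limma on FPKM at either pseudocount, 6 with library sizes alone, 3 after removal of the trend with summed exon length (Atp5h, Atp5l and Atp5j2), 0 after removal of the trend with mRNA length, 22 at an unadjusted p under 0.05, and 0 to 10 with 1 liver left out. The count stayed at 10 with RLE factors (1.86%), the GC trend removed (1.89%), or pseudogene counts added (1.95%). With the replicate number as a block it was 1 (Atp5h), against 0.542% of all genes. Nothing states that the numbers pair the livers. Deviations of livers with the same number correlated at -0.076, 0.088 and -0.041, which so few livers cannot use to exclude a pairing. A call lost under the block is not by itself a weaker effect. No member was called lower under any setting. The median of complex III fell from 0.42 to 0.27 with the mRNA length trend removed, and that of complex IV from 0.50 to 0.29 with the exon length trend and 0.20 with the mRNA length trend removed. The cause was not tested. Of the 47 assembly factors and regulators, 1 was called higher with DESeq2 (3.88% of all genes) and without a filter (1.76%). It was also 1 with a mean of at least 50 counts (2.6%) and with the GC trend removed (1.89%). With 1 liver left out it was 0 to 1 (0.13% to 1.75%).

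Signs reversed in some setting for 9 genes and 4 ratios, none of them past the threshold as reported. Uqcrc2 was -0.040 with library sizes alone and -0.039 with either length trend removed (-0.021 to 0.069 with 1 liver left out), Atp5a1 -0.011 with library sizes alone (-0.020 to 0.13), Atp5k -0.025 and -0.13 with the exon and mRNA length trends removed (-0.040 to 0.38), and mt-Co2 -0.14 with either (-0.30 to 0.35). Atp5g2 and Atp5g3 were -0.081 and -0.092 with the mRNA length trend removed, and Atp5b 0.0092 with the exon length trend removed (-0.065 to 0.041). Uqcr11 ran from -0.20 to 0.12 and Cox7a2l from -0.091 to 0.0039 with 1 liver left out. Among ratios, Cox6b2 to Cox6b1 was -0.19 on FPKM plus 1, and Atp5g3 to Atp5g2 0.0026 with copies added. With 1 liver left out, Atp5g3 to Atp5g2 ran from -0.10 to 0.12, Atp5g1 to Atp5g2 from -0.12 to 0.17 and Atp5g1 to Atp5g3 from -0.013 to 0.18. Depth limits the low tissue isoforms, whose counts cannot show a difference.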

Other observations

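Some genes alike in sequence to the members carried counts of their own. Gm11273, annotated as protein-coding and alike to Cox5b at 99.2% identity, had a log2 fold change of -0.58, and Gm10053, also annotated as protein-coding and alike to Cycs, of -0.03, whereas both parent genes were above 0. Gm6969, a processed pseudogene alike to Cox7a2l, had 139 counts in all and a log2 fold change of 1.73 (adjusted p = 0.10, edgeR), while Cox7a2l was at -0.05. None of these copies was called.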
